A study of Mus musculus and Homo sapiens with 47 samples.

Results

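The comparison set sorted intestinal cells of labelled day 16 against those of labelled day 7 in mice in which Eed, a core subunit of Polycomb repressive complex 2 (PRC2), was made deletable. Each day was measured in 1 droplet-based 3' single-cell RNA library. Barcodes were kept as cells with at least 2500 unique molecular identifiers (UMIs, each standing for 1 captured RNA molecule), 500 or more genes and a mitochondrial share of UMIs of 20% or less. This left 2792 cells at day 16 and 3833 cells at day 7, or 6625 of the 11289 cells that the same filter left in the 3 single-cell libraries of the series. The third library, of day 12, held 4664 cells, and its values are given beside the comparison.

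Both groups had the genotype Eed F/F; Lgr5EGFP-IRES-CreERT on a B6;129 mixed background. They therefore shared floxed Eed and a Cre recombinase, active only with tamoxifen, that is driven with GFP from the stem cell gene Lgr5. The day 16 and day 7 mice were both injected with tamoxifen, on 5 consecutive days and on alternate days afterwards. Epithelium of the proximal intestine was dissociated and GFP-positive cells were sorted. The sample titles of both days call the stem cells adult. The exact age of the mice, the event from which days run, and the number of mice behind a library are not given in the labels. The labels also name the source as villus cells, and no wild-type single-cell library was used here, so the day 7 cells are not untreated cells.

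PRC2 methylates histone H3 at lysine 27, a mark that keeps many developmental promoters silent, and Eed is needed for that activity. Intestinal stem cells at the crypt base divide under Wnt signalling and give rise to absorptive enterocytes and to the secretory goblet, Paneth, enteroendocrine and tuft cells. A protein or mark made before a deletion is thinned as cells divide, so days after the deletion are a natural axis in such a study.

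The libraries differed in depth and in sex-linked RNA. Median UMIs per cell were 11875 at day 16 and 7945 at day 7. Median genes per cell were 3088 at day 16 and 2575 at day 7, and median mitochondrial shares 11.0% and 8.80%. Summed UMIs of kept cells were 35319592 at day 16 and 35516617 at day 7. The X-linked RNA Xist, made by the inactive X chromosome, stood at 0.967 CPM (counts scaled to 1e6 UMIs of autosomal genes) at day 16 and 1460 CPM at day 7. The Y-linked Ddx3y stood at 44.7 CPM at day 16 and had 0 UMIs at day 7. The libraries thus came from mice of different sex, and day, mouse, sex and library cannot be told apart. Only genes of the autosomes were compared for this reason. The 2 libraries shared 1 cell barcode.

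With 1 library per day there is no replicate and no test between days. Ratios of summed CPM are given with exact 95% intervals, as are shares of cells (Clopper-Pearson), and both cover counting error only. A gene is called higher or lower here when the ratio is at least 2-fold. In sums over cells, fewer cells that express a gene and less RNA per cell cannot be told apart. Of 22771 autosomal genes, 10691 had a mean of at least 2 CPM over the 2 libraries. Among these, 703 (6.58%) were at least 2-fold higher at day 16 and 898 (8.40%) at least 2-fold lower. These shares over all tested genes are the background for the counts of single-cell list members given below. The median log2 ratio was -0.11, so a scaling that sets this median to 0 lifts every ratio by 0.11. The gene just inside the threshold of 2-fold had a log2 ratio of 1.0007 and the one just outside 0.99956.

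Eed itself had 30.3 CPM at day 16 and 61.0 CPM at day 7, with 30.1 CPM at day 12. Its UMIs were found in 5.05% of day 16 cells and 9.37% of day 7 cells after every cell was thinned to 2000 UMIs, as for all shares below unless stated. The 3' end of the transcript is read whether or not an upstream exon is deleted, and the labels do not name the deleted exon, so the deletion and the labels are not checked by this gene. The other core subunits Ezh2, the main methyltransferase, and Suz12 stayed under 2-fold. Ezh2 had 128 CPM at day 16 and 137 CPM at day 7, whereas Suz12 had 118 CPM at day 16 and 140 CPM at day 7. Of 10 tested PRC2 genes, Eed was the only one past 2-fold, with a log2 ratio of -1.01 (interval of the ratio 0.46 to 0.54). It fell short of 2-fold when the median of all genes was set to 0. Of 19 tested subunits of PRC1, the partner complex that binds or ubiquitinates Polycomb chromatin, 0 were higher and 3 were lower. The background over all tested genes was 6.58% higher and 8.40% lower. The lower ones were led by the chromodomain gene Cbx6, with 3.42 CPM at day 16 and 45.9 CPM at day 7.

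Genes near silence at day 7 and present at day 16 were led by Rbp7, Gzma, Gip, Mptx1, Barx1 and Cdkn2a. Cdkn2a encodes the cell cycle inhibitor p16INK4a and, from another first exon, the p53 activator p19ARF. It had 944 UMIs at day 16 and 0 at day 7, at least 321-fold higher against a floor of 3 UMIs over the library. The day 12 library had 51 Cdkn2a UMIs, or 1.39 CPM. Barx1, a homeobox gene of the embryonic stomach, had 330 UMIs at day 16 and 1 at day 7 (ratio 337, interval 60.1 to 13353). Hoxb13, the most posterior gene of the Hoxb cluster, had 339 UMIs at day 16 and 0 at day 7, at least 115-fold higher. Day 12 cells held 1 Hoxb13 UMI.

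The promoters of some of these genes are shown because promoters dense in CG pairs are typical targets of PRC2. The sequences are the RefSeq windows of build GRCm38.p6, 300 bases long, from 250 before to 50 after a start site, 5′ to 3′ on the gene's strand, with each CG in capitals. A CG pair reads the same on both strands. Cdkn2a has 2 start sites, and 3' UMIs do not tell their transcripts apart.
Cdkn2a, upstream start, chr4:89294570-89294869, minus strand: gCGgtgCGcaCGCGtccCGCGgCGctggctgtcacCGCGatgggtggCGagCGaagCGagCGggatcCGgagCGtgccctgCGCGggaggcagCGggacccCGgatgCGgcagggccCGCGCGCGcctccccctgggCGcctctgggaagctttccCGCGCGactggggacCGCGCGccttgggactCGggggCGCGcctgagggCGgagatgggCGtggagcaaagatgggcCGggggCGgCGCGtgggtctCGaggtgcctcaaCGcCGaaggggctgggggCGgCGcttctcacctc
Cdkn2a, downstream start, chr4:89282143-89282442, minus strand: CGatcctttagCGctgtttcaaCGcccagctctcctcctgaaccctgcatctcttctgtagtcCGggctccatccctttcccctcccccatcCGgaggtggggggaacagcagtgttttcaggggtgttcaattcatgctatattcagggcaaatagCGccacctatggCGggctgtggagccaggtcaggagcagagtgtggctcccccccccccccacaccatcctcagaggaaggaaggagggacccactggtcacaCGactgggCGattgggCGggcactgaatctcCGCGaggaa
Barx1, chr13:48662786-48663085, plus strand: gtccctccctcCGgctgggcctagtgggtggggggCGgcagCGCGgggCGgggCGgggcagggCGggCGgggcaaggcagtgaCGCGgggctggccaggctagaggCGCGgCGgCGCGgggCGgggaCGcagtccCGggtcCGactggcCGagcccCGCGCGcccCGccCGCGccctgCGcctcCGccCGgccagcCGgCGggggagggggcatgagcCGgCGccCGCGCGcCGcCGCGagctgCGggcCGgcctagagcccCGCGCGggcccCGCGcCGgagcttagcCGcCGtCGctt
Gip, chr11:96024295-96024594, plus strand: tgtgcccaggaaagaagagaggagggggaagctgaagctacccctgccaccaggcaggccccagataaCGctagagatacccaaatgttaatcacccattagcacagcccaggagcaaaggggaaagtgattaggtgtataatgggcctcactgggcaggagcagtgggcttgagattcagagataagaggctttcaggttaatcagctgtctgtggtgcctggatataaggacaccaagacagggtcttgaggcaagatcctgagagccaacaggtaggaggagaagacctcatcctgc
Ifitm1, chr7:140967826-140968125, plus strand: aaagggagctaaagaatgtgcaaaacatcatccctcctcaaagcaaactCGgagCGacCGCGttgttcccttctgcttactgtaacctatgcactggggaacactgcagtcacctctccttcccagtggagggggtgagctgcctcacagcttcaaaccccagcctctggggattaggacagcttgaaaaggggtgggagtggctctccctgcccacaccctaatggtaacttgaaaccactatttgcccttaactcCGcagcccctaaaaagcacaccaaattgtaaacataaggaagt
The upstream Cdkn2a window holds 45 CG pairs and the Barx1 window 50. Of the 32850 windows of the RefSeq table, 1.93% hold at least 45 and 0.855% at least 50. The downstream Cdkn2a window holds 12, which 39.6% of windows reach, and the Gip window holds 1. Ifitm1, shown as the gene with the largest fall, has 5. The window of Rbp7, the gene with the largest rise, is not printed and also holds 5, which 62% of windows reach. That of Wnt6, among the largest falls and not printed either, holds 31, which 10.6% of windows reach. These few windows therefore do not show whether rises and falls differ in CG content. The median over all windows is 7. Promoters were in the table for 79.2% of the higher and 78.6% of the lower genes, under the 80% set for such a check, so a comparison of CG content between those sets is void and not reported.

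Cdkn2a was seen less often in day 16 cells with stem cell markers than in cells with markers of differentiated types. Cells were sorted into gates, each the cells with at least 3 different markers of a type after thinning, and a cell can be in several gates. Cdkn2a UMIs were found in 49 of 652 enterocyte-gate cells (7.52%, interval 5.61% to 9.81%), 22 of 281 goblet-gate cells (7.83%) and 6 of 79 enteroendocrine-gate cells (7.59%). In the stem gate they were found in 8 of 1002 cells (0.798%, interval 0.345% to 1.57%). The enterocyte and stem gates shared 121 day 16 cells, and 67 of the 944 UMIs lay in stem-gate cells. All are cells of 1 library, so the intervals cover counting error and do not test 1 gate against another. The 22 immune-gate cells, at a median of 2884 UMIs, held 1 Cdkn2a UMI before thinning and 0 after it (interval up to 15.4%). Over all cells the share was 4.05% at day 16, or 13.3% without thinning, and 0 of 3833 cells at day 7 with or without thinning. With 3 cells as the limit, that 0 allows up to 0.0783% of day 7 cells with a UMI, which does not bound the cells that express the gene. Empty droplets of the day 16 library held Cdkn2a at 29.5 CPM, close to the level in cells, so single UMIs in a cell can come from free RNA. The goblet and stem gates had like median depths before thinning, of 10550 and 10690 UMIs, and Cdkn2a was found in 7.83% and 0.798% of their cells.

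Among the stem, enterocyte, goblet, enteroendocrine and immune gates, Barx1 and Hoxb13 were found most often in the goblet gate. At day 16 that gate shared 166 of its 281 cells with the Paneth gate. No share of these genes in Paneth-gate or tuft-gate cells is given here. Barx1 was found in 37 of 281 goblet-gate cells (13.2%) and 9 of 652 enterocyte-gate cells (1.38%), against 1 of 1002 stem-gate cells (0.0998%). Hoxb13 was found in 26 goblet-gate cells (9.25%), 18 enterocyte-gate cells (2.76%) and 5 stem-gate cells (0.499%). Of the 6 Hox genes that reached the filter, Hoxb13 and Hoxa10 were higher and 0 were lower, and Hoxa7 had 5.96 CPM at day 16 and 5.90 CPM at day 7. Of all 39 Hox genes, 3 had 0 UMIs at day 16 and 22 had 0 UMIs at day 7. Below the filter, and picked after their values were seen, Hoxb7 had 105 UMIs at day 16 and 1 at day 7, and Hoxc9 had 62 at day 16 and 0 at day 7. Hox genes pattern the body axis in the embryo. Hoxa9 was alike in both libraries, at 4.48 CPM and 3.88 CPM (ratio 1.15, interval 0.90 to 1.48).

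**Figure D1:**
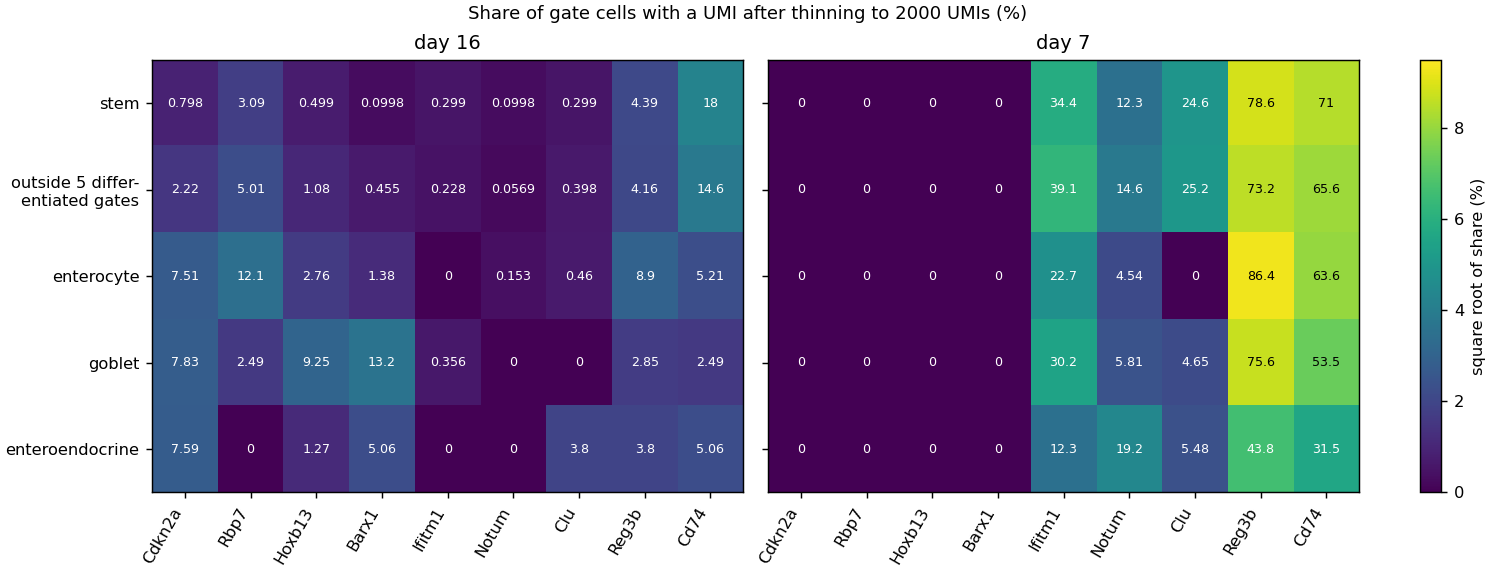
Share of cells with at least 1 UMI of a gene after thinning to 2000 UMIs, in percent, for 9 genes (columns) and 5 gates (rows), at day 16 (left) and day 7 (right), 1 library each. Cdkn2a, Rbp7, Hoxb13 and Barx1 are at 0 in every day 7 gate, and at day 16 Cdkn2a is at 7.52% in the enterocyte gate and 0.798% in the stem gate.

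Other transcription factors of development were seen at day 16 at low levels. Among 103 such genes 18 reached the filter, of which 4 were higher and 5 lower. The homeobox gene Barx2 had 28.7 CPM at day 16 and 3.31 CPM at day 7, the endocrine and eye factor Pax6 had 5.77 CPM and 0.189 CPM, and Meis2 had 6.03 CPM and 1.86 CPM. The lower ones were Sox17, Prox1, Irx5, Msx1 and Gata5, of which Prox1 had 2.00 CPM at day 16 and 102 CPM at day 7. Of the 103 genes, 21 had 0 UMIs at day 16 and 41 had 0 UMIs at day 7. Below the filter, and again picked after their values were seen, Pax3 had 108 UMIs at day 16 and 0 at day 7, Zic2 117 and 1, and En2 106 and 2. The intestinal factors Cdx1 (205 CPM at day 16, 113 CPM at day 7) and Cdx2 (157 CPM and 129 CPM) stayed under 2-fold.

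Of 8 CDK inhibitors, which hold back the cell cycle, 3 were higher at day 16 and 0 lower. Beside Cdkn2a these were its neighbour Cdkn2b, with 23.5 CPM at day 16 and 0.947 CPM at day 7 (24.8-fold, interval 17.2 to 37.0), and Cdkn1a, with 130 CPM and 47.9 CPM (2.71-fold, interval 2.55 to 2.88). Cdkn1c, an imprinted member, had 29.3 CPM at day 16 and 47.1 CPM at day 7. It peaked at 386 CPM at day 12. Of 21 tested targets of p53, Cdkn1a, Ccng1 (2.39-fold) and the death receptor gene Fas (2.15-fold) were higher and 0 were lower. Over all 10691 tested genes 6.58% were higher and 8.40% lower. Mdm2, the p53 antagonist, had 30.5 CPM at day 16 and 36.04 CPM at day 7. Replication and mitosis genes mostly stayed under 2-fold. Of 29 replication genes 1 was higher, Dut, and of 31 mitosis genes 1, Kif23, with 0 lower in either list and median log2 ratios of 0.16 and 0.02. Cells with at least 3 of 10 cycling markers made up 29.9% at day 16 (interval 28.2% to 31.6%) and 23.8% at day 7 (interval 22.4% to 25.1%).

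Rbp7, a cellular retinol-binding protein, showed the largest ratio. Its UMIs numbered 1687 at day 16 and 1 at day 7 (ratio 1723, interval 309 to 68096). It was found in 6.23% of day 16 cells and in 27.7% without thinning. Among the stem, enterocyte, goblet, enteroendocrine and immune gates it was found most often in the enterocyte gate (12.1%), and in 3.09% of stem-gate cells. Mptx1, a mucosal pentraxin, had 1263 CPM at day 16 and 1.83 CPM at day 7. As few as 30 cells held 80% of its UMIs. It was found in 46.3% of the 281 goblet-gate cells at day 16. Of those 281 cells, 166 were also in the Paneth gate. Gip, the incretin hormone of K cells, had 364 CPM at day 16 and 0.410 CPM at day 7. Only 6 cells held 80% of its UMIs. The ratios of Mptx1 and Gip therefore rest on few cells. Other rises were enzymes or proteins of mature epithelium, at levels below those of Mptx1 and Gip. The carbonic anhydrase gene Car4 had 1125 UMIs at day 16 and 15 at day 7, Gsta1 2191 and 16, Scin 1688 and 17, the glucuronosyltransferase gene Ugt2b5 342 and 2, and the gasdermin gene Gsdmc4 402 and 6.

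Gzma, Gzmb and Ccl5, genes of cytotoxic lymphocytes, were also among the 15 largest rises. Gzma had 2285 UMIs at day 16 and 2 at day 7, with 9 cells holding 80% of them. Cells with at least 3 immune markers numbered 22 of 2792 at day 16 (0.788%) and 1 of 3833 at day 7 (0.0261%). Of 8 tested immune markers 6 were higher and 0 lower, and the 24 immune list genes in the files summed to 211 CPM at day 16 and 41.1 CPM at day 7. The macrophage markers Csf1r and C1qb were at 0 in both libraries. The sum in empty droplets was 480 CPM at day 16, above that in cells. Without the immune-gate cells, 694 genes were higher and 907 lower. No cell of either library had at least 3 stromal or red blood cell markers.

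**Figure D2:**
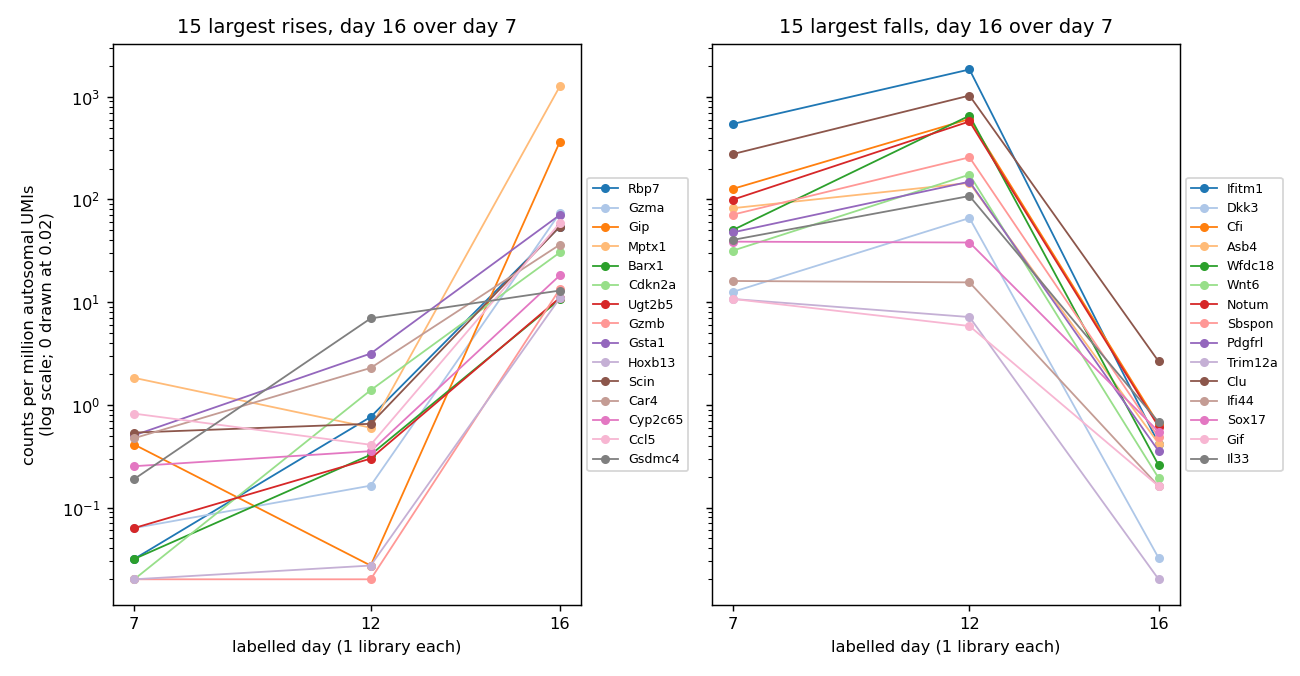
Level of the 15 genes with the largest rise (left) and the 15 with the largest fall (right) from day 7 to day 16, in CPM of autosomal UMIs on a log scale, over days 7, 12 and 16 with 1 library each. Cdkn2a goes 0, 1.39 and 30.4 CPM, whereas Ifitm1 goes 544, 1842 and 0.419 CPM and most of the 15 falls peak at day 12.

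Most digestive genes of enterocytes were higher at day 16. Of 36 tested genes 25 were higher and 1, the lipoprotein receptor Scarb1, was lower, with a median log2 ratio of 2.07. The fatty acid binding protein Fabp1 had 481 CPM at day 16 and 26.5 CPM at day 7 (18.1-fold, interval 16.9 to 19.5). The brush border enzymes Sis, sucrase-isomaltase, and Alpi, intestinal alkaline phosphatase, were 14.1-fold and 26.0-fold higher. The apolipoprotein Apoc3 was 33.9-fold higher, and the drug-metabolising enzyme Cyp2c65 72.1-fold (18.2 CPM at day 16, 0.252 CPM at day 7). The enterocyte gate held 23.4% of day 16 cells (interval 21.79% to 24.97%) and 0.574% of day 7 cells (interval 0.360% to 0.868%). It is the upper end of a range rather than a class, since a further 801 day 16 cells had 2 of its markers. It widened with depth, to a difference of 65.3 percentage points without thinning.

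Secretory genes were higher too, with exceptions. Of 20 goblet markers 14 were higher and 2 lower, with a median log2 ratio of 1.96. The mucin Muc2 had 314 CPM at day 16 and 45.6 CPM at day 7 (6.90-fold), and the trefoil peptide Tff3 1357 CPM and 144 CPM (9.40-fold). The lectin Zg16 was 25.3-fold and the protease Capn9 29.8-fold higher. The lower ones were Foxa3, a factor of goblet cells with 31.1 CPM at day 16, against 120 CPM at day 7, and the gene that the files call Clca1, with 5.93 CPM and 15.6 CPM. The goblet gate held 10.1% of day 16 cells (interval 8.97% to 11.2%) and 2.24% of day 7 cells (interval 1.80% to 2.76%).

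Of 27 tested enteroendocrine genes 17 were higher, the synaptic gene Cplx2 was lower, and the median log2 ratio was 1.89. The granins Chga and Chgb were 4.36-fold and 6.10-fold higher, somatostatin (Sst) 10.6-fold, ghrelin (Ghrl) 41.1-fold, and Gip 887-fold (interval 518 to 1666). The enteroendocrine gate held 2.83% of day 16 cells and 1.90% of day 7 cells, and the intervals of 2.25% to 3.51% and 1.496% to 2.389% overlap. Neurog3, which starts the endocrine lineage, was not higher, with 16.2 CPM at day 16 and 21.1 CPM at day 7. Of 17 tested tuft genes 11 were higher and 0 lower, with a median log2 ratio of 1.28, among them the tuft marker Dclk1 at 6.88-fold and Alox5ap, a gene of leukotriene synthesis, at 6.80-fold. The list's summed level was lower, at 437 CPM at day 16 and 546 CPM at day 7, with the most abundant member Cd24a, a surface protein also of other crypt cells, at 251 CPM and 473 CPM. The tuft gate held 38 cells at day 16 (1.36%) and 22 at day 7 (0.574%).

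Paneth cell genes were divided. Of 20 tested, Mptx1 was higher and 9 were lower, with a median log2 ratio of -0.72. The phospholipase Pla2g2a had 27.9 CPM at day 16, against 685 CPM at day 7, and the protease Mmp7 40.0 CPM and 201 CPM. Lysozyme (Lyz1) had 1668 CPM at day 16 and 1853 at day 7, and the defensin Defa24 2986 CPM and 3145 CPM. Without the 5% of cells with the most UMIs the list's median was 0.13, and with at most 10% mitochondrial UMIs it was 0.36. The Paneth gate held 6.91% of day 16 cells and 3.73% of day 7 cells. It shared 166 cells with the goblet gate at day 16 and 67 at day 7. Reads of the defensins, of Gsta1, Ugt2b5, Cyp2c65, Gsdmc4, Trim12a and the Reg3 and H2-Q genes may be split among near-identical copies, and how such reads were counted is not given in the sources used here.

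Transcription factors that steer the secretory lineages were mixed. Of 17 tested 3 were higher, Atoh1, Spdef and Dll1, and 3 lower, Sox4, Sox9 and Foxa3, with a median log2 ratio of 0.21. Atoh1, which sets the secretory fate, had 17.5 CPM at day 16 and 5.65 CPM at day 7. Sox9, a factor of crypt and Paneth cells, had 132 CPM at day 16 and 295 CPM at day 7. Outside the gates of differentiated cells Spdef, a goblet factor, had a log2 ratio of -1.58, the opposite direction. Spdef is itself 1 of the 10 markers of the goblet gate. Leaving out that gate takes out cells with Spdef UMIs, so this change of direction is partly built in.

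**Figure D3:**
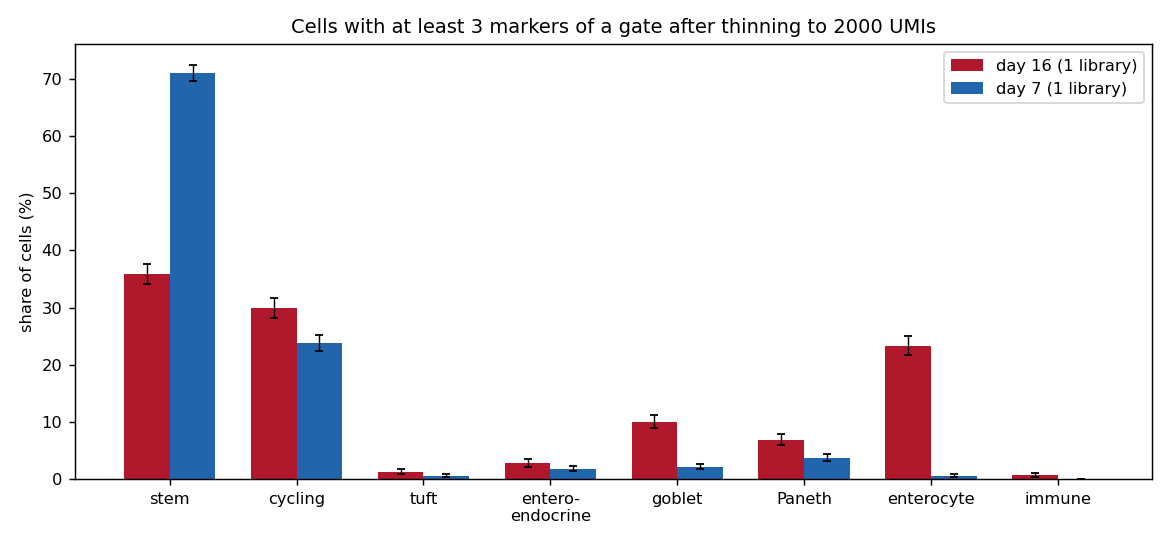
Share of cells with at least 3 different markers of a gate after thinning to 2000 UMIs, in percent, at day 16 (red, left of each pair) and day 7 (blue), 1 library each, with exact 95% intervals for counting error. The enterocyte gate stands at 23.4% and 0.574%, and the stem gate at 35.9% and 71.0%, for day 16 and day 7.

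Stem cell markers were lower at day 16 although both libraries were sorted on a reporter of one of them. Of 24 tested markers 15 were lower and 0 higher, with a median log2 ratio of -1.11. Lgr5 had 51.1 CPM at day 16 and 220 CPM at day 7 (ratio 0.23, interval 0.22 to 0.24). The growth factor binding protein gene Igfbp4 had 88.5 CPM and 557 CPM, Gkn3 80.7 CPM and 323 CPM, and the receptor gene Tnfrsf19 12.5 CPM and 139 CPM. Olfm4, a marker of dividing crypt base cells, went the other way without reaching 2-fold, with 497 CPM at day 16 and 270 CPM at day 7 (1.84-fold, interval 1.79 to 1.89). It had 11.1 CPM at day 12. The stem gate held 35.9% of day 16 cells (interval 34.1% to 37.7%) and 71.0% of day 7 cells (interval 69.6% to 72.5%), so fewer of the day 16 cells carried the markers that their label names. At least 3 of 6 epithelial markers were found in 92.6% and 92.0% of cells.

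Wnt targets and feedback genes, which report or limit Wnt signalling, were lower or under 2-fold in every tested member. Of 19 tested 12 were lower and 0 higher, with a median log2 ratio of -1.44. Notum, a secreted enzyme that inactivates Wnt ligands, had 19 UMIs at day 16 and 3155 at day 7 (163-fold lower, interval 104 to 270). The ligand gene Wnt6 had 6 UMIs and 1006 UMIs, and the feedback inhibitor Nkd1 180 and 8666. Axin2, a general Wnt target, had 80.2 CPM at day 16 and 208 CPM at day 7. The ligand modulator Dkk3 had 1 UMI at day 16 and 399 at day 7. Myc (53.8 CPM and 60.3 CPM), Ccnd1 (148 CPM and 150 CPM) and Lrp6 (38.4 CPM and 39.5 CPM) were close to equal. At day 12 Notum stood at 574 CPM, Nkd1 at 790 CPM and Wnt6 at 174 CPM, above both other days.

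The largest fall was that of Ifitm1, an interferon-inducible membrane protein. It had 0.419 CPM at day 16 and 544 CPM at day 7, 1297-fold lower (interval 758 to 2437), and was found in 0.179% and 38.1% of cells. Clu, clusterin, a marker of fetal-like and regenerating epithelium, had 2.64 CPM at day 16 and 277 CPM at day 7. The complement regulator Cfi had 0.645 CPM and 127 CPM, the endoderm factor Sox17 0.548 CPM and 38.8 CPM, and the alarmin Il33 0.677 CPM and 40.4 CPM. Trim12a had 0 UMIs at day 16 and 340 at day 7, at least 111-fold lower. Asb4, Wfdc18, Sbspon and Pdgfrl had 8 to 15 UMIs at day 16, against 1514 to 2604 at day 7, and the gastric intrinsic factor gene Gif had 5 and 340. Single genes among the 15 falls were found in 2.01% (Gif) to 38.1% (Ifitm1) of day 7 cells. At least 1 of the 15, chosen for being high at day 7, was found in 1.29% of day 16 cells and 71.1% of day 7 cells, and at least 3 in 0 of 2792 day 16 cells and 24.2% of day 7 cells. At least 1 of the 15 largest rises was found in 28.7% of day 16 cells and 0.600% of day 7 cells. At day 12 these shares were 96.3% for the falls and 0.943% for the rises.

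Of 11 tested genes of fetal epithelium and imprinted growth control 2 were higher, 5 lower and the median log2 ratio was -0.73. The RNA-binding proteins Igf2bp3 and Igf2bp1, which are typical of fetal tissue, were the higher ones, Igf2bp3 with 19.7 CPM at day 16 and 2.87 CPM at day 7. Beside Clu the lower ones included Ly6a, a surface protein of regenerating epithelium, with 2.51 CPM at day 16 and 26.3 CPM at day 7.

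Genes of antigen presentation and interferon response were lower in most members. Of 7 tested MHC class II genes, which present peptides to T cells, all 7 were lower, with a median log2 ratio of -3.54. The invariant chain Cd74 had 84.5 CPM at day 16 and 993 at day 7. It was found in 18.0% of stem-gate cells at day 16 and 71.0% at day 7 (1934 of 2722 cells). Their activator Ciita had 23 UMIs and 273 UMIs. Of 33 tested interferon-stimulated genes 28 were lower and 0 higher, with a median of -2.53. Isg15 had 7.54 CPM at day 16 and 59.0 at day 7, and Ifi44 0.161 CPM and 16.1 CPM. MHC class I genes moved less, with 2 of 14 higher and 1 lower, beside 6.58% and 8.40% of all tested genes. B2m had 267 CPM at day 16 and 243 CPM at day 7. The non-classical gene H2-T3 had 53.6 CPM at day 16 and 7.98 CPM at day 7.

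The antimicrobial lectins Reg3b and Reg3g were abundant at day 7. Reg3b had 163 CPM at day 16 and 6714 at day 7, and Reg3g 135 CPM and 1749 CPM. Reg3b was found in 78.6% of stem-gate cells and 43.8% of enteroendocrine-gate cells at day 7, and empty droplets of that library held it at 7321 CPM, so part of its spread over gates may be free RNA, which was not tested. Reg1 and Reg4 were higher at day 16, Reg1 with 211 CPM against 49.3 CPM, and Reg4 with 170 CPM against 47.1 CPM at day 7. The median log2 ratio over the 5 tested Reg genes was 0.55, while their summed level was lower at day 16, at 694 CPM against 8569 CPM.

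Housekeeping groups differed less. Of 75 ribosomal protein genes 1 was higher and 0 were lower, with a median log2 ratio of 0.07. Of 55 nuclear genes of oxidative phosphorylation 2 were higher, Sdhb (3.95-fold) and Cox7a2 (3.31-fold), and 0 lower, with a median of 0.50. The glycolysis gene Pkm had 260 CPM at day 16, 37.9 CPM at day 7 and 536 CPM at day 12, the highest level being that of day 12. Of 30 immediate-early and heat-shock genes, which can mark handling of tissue, 2 were higher and 2 lower, with Hspa1a at 241 CPM at day 16 and 85.2 at day 7, and Ier3 at 19.99 CPM and 113 CPM. Their part in the other differences was not tested. Of 23 cholesterol genes 0 were higher and 2 lower, and of 25 genes of amino acid response and ER stress 0 were called. Of 14 glycolysis genes 3 were higher and 1 lower. Beside the counts of these groups, 6.58% of all tested genes were higher and 8.40% lower. Of 18 stromal genes 2 reached the filter, of which Vim, vimentin, was lower with 24.8 CPM at day 16, 110 CPM at day 7 and 744 CPM at day 12. No red blood cell gene reached it.

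**Figure D4:**
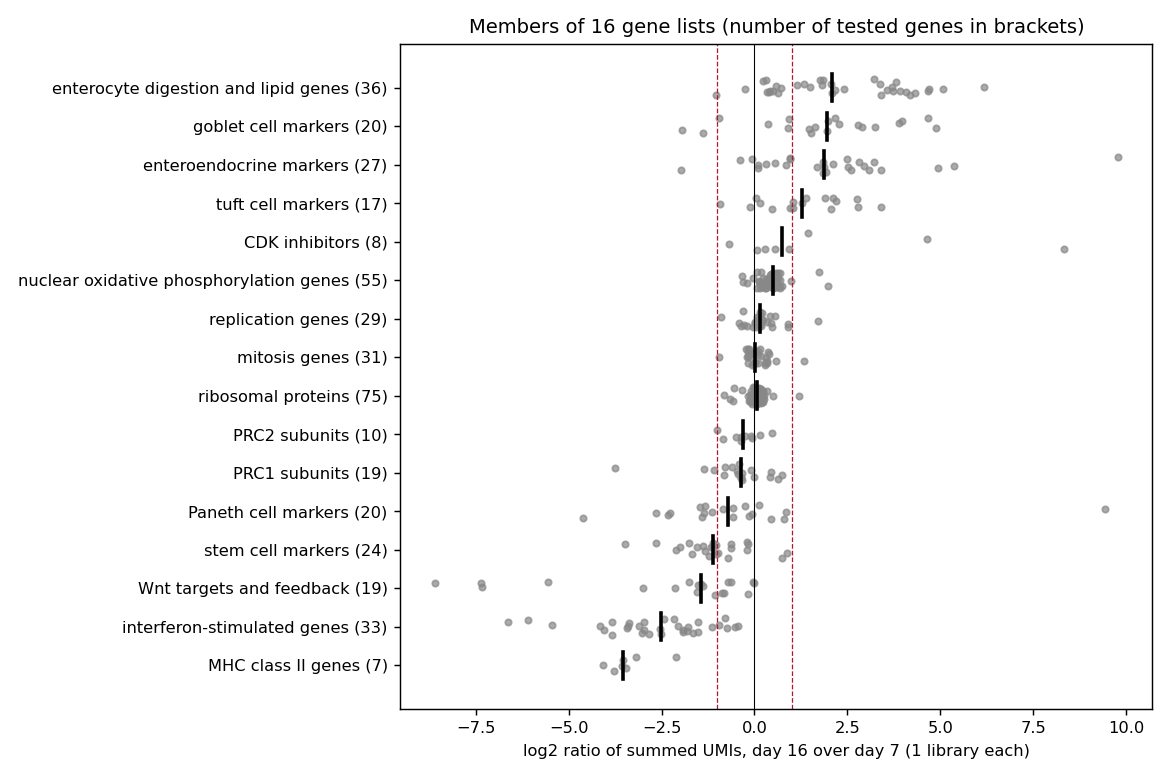
Log2 ratio of summed UMIs, day 16 over day 7, for each tested member (grey points) of 16 gene lists, with the list median as a black bar and dashed lines at 2-fold. The medians run from 2.07 for enterocyte genes to -3.54 for MHC class II genes, against -0.11 for all 10691 tested genes.

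Most genes called over all cells were also past 2-fold among the cells without markers of differentiated types. Those cells were 62.9% of the day 16 and 92.8% of the day 7 cells that gave the calls. The overlap of calls is therefore partly built in, as for the stem gate with 35.9% and 71.0% of cells. Among cells outside the tuft, enteroendocrine, goblet, Paneth and enterocyte gates, 1757 at day 16 and 3557 at day 7, 544 genes were higher and 941 lower. Of the 703 genes higher over all cells 502 were still at least 2-fold higher there and 30 had a ratio below 1. Of the 898 lower genes 799 were still at least 2-fold lower and 1 had turned. Among cells of the stem gate, 461 genes were higher and 871 lower, and 413 of the higher and 692 of the lower ones were shared with the comparison over all cells. There 53 of the 703 higher genes had a ratio below 1, and 0 of the 898 lower genes had turned. Goblet and enteroendocrine lists had medians of -0.65 and -0.29 there, against 1.96 and 1.89 over all cells. Within the stem gate Lgr5 had 118 CPM at day 16 and 270 CPM at day 7. It is 1 of the 9 markers that define this gate, so its level there depends on how cells were chosen. Cells outside a gate by thinned markers can still hold more mature cells, as the 801 cells with 2 enterocyte markers show.

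Bulk RNA of cells sorted in the same way was measured at other days, with 3 libraries for day 9, 2 each for days 14 and 21, and 1 for day 30. They had the same genotype, background and tamoxifen schedule. Single-cell sums and bulk counts were scaled separately, so any level set across them is a description. In edgeR's quasi-likelihood test with Benjamini-Hochberg adjustment, 1091 of 14664 genes were higher at day 21 than at day 9 (7.44%) and 1873 lower (12.8%). With scaling to library size alone they were 2825 higher and 1009 lower. Of 701 genes higher in day 16 single cells and fitted in bulk, 142 were higher in bulk (20.3%, or 13.02% of the bulk higher genes) and 51 lower (7.28%). Of 879 genes lower in day 16 single cells, 81 were lower in bulk (9.22%, or 4.33% of the bulk lower genes) and 72 higher (8.19%). The second share lies below the 12.8% of all genes called lower, the first above the 7.44% of all genes called higher. Without day 21 replicate 2 the 81 were 40, and without day 9 replicate 1 they were 52. The bulk day 30 library, set against day 9 and assumed to vary like the other groups, gave 55 of the first set higher and 91 lower, and 31 of the second set lower and 51 higher. The labels call the bulk libraries biological replicates without naming mice, so a p-value rests on the spread among those libraries. The 2 day 21 libraries came from mice of different sex, with Xist at 816 and 3.09 CPM and Ddx3y at 0 and 38.5 CPM. For days 9 and 14 the spread may be technical.

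Of the 15 largest rises 7 were called higher at bulk day 21 and 0 lower. Of the 15 largest falls 14 were fitted, and 0 were called in either direction by edgeR. Without adjustment 2 of the 14, Sox17 and Gif, had p under 0.05, and DESeq2 called 1, Gif. The count of 0 changed with other edgeR settings. Cfi was called lower with the replicate number as a block (edgeR adjusted p = 0.0134) and without day 9 replicate 3 (0.0073). Gif was called higher without day 21 replicate 2 (edgeR adjusted p = 0.0113), and Sox17 and Gif with library-size scaling (0.0458 and 0.0479). Gif was also called without the filter on low counts.

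Cdkn2a had 11.9 and 11.6 CPM in the bulk day 21 libraries, against 0.388, 0.285 and 0.291 CPM in those of day 9. The groups did not overlap (log2 5.17, SE 0.38, edgeR adjusted p = 3.6e-05). Hoxb13 had 6.29 and 8.52 CPM in the libraries of day 21, against 0, 0.285 and 0.0484 CPM in those of day 9 (log2 5.94, SE 0.66, edgeR adjusted p = 0.00048). Barx1 had 4.34 and 5.43 CPM in the libraries of day 21, against 0.172, 0.407 and 0.388 CPM in those of day 9 (log2 3.903, SE 0.39, edgeR adjusted p = 0.000239). All 3 were low in every day 9 library. Of the 2 day 21 libraries the first had Xist at 816 CPM and the second at 3.09 CPM, and Cdkn2a was as high in one as in the other. The 3 day 9 libraries had Xist between 712 and 1267 CPM. At bulk day 14 Cdkn2a had 0.0931 and 0 CPM, whereas Hoxb13 had 3.31 and 2.43 CPM and Barx1 1.68 and 2.19 CPM. The day 14 libraries had Xist at 0.512 and 0 CPM and lay apart from all other days in some genes. Axin2 had 89.3 and 106 CPM there, against 367 to 499 CPM, and Msi1 1.77 and 1.80 CPM, against 35.7 to 76.4 CPM. What sets them apart was not tested, so an order of these genes over days cannot be read from them. Mptx1 had 549 and 460 CPM in the libraries of day 21, against 69.5, 39.7 and 65.5 CPM in those of day 9 (log2 3.12, SE 0.21, edgeR adjusted p = 2.24e-05). Gip (log2 1.66, SE 0.25, edgeR adjusted p = 0.00272), Scin, an actin-severing protein (log2 0.68, edgeR adjusted p = 0.00665), and the glutathione transferase Gsta1 (log2 1.35, edgeR adjusted p = 0.0236) were higher as well. The call of Gsta1 was lost without day 9 replicate 1 or day 21 replicate 1 (edgeR adjusted p up to 0.162), and the other 6 kept theirs whichever library was left out.

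Rbp7, first in single cells, had 9.71 and 18.8 CPM at bulk day 21 and 15.4, 11.0 and 14.5 CPM at bulk day 9. The groups overlapped (log2 0.07, edgeR adjusted p = 0.891). Gzma had 14.1 and 6.62 CPM at day 21 and 16.1, 6.88 and 16.8 CPM at day 9, again overlapping.

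Notum, Ifitm1 and Clu, among the largest falls in single cells, were already low in bulk at day 9. Notum had 1.25 and 0.954 CPM at bulk day 21 and 0.388, 0.774 and 0.242 CPM at bulk day 9. Ifitm1 had 0.782 and 0.263 CPM at bulk day 21 and 0.216, 0.122 and 0.0969 CPM at bulk day 9. Clu had 9.75 and 3.00 CPM at bulk day 21 and 6.12, 3.30 and 6.64 CPM at bulk day 9. All 3 lay below 10 CPM in all 8 bulk libraries, day 14 included, where the single-cell sums had them between 99.6 and 1842 CPM at days 7 and 12. For 9 of the 14 fitted falls the mean at bulk day 9 was under 1 CPM. Cfi stood apart, with 7.08 and 10.17 CPM at bulk day 21 and 25.62, 19.46 and 2.52 CPM at bulk day 9, and Ifi44 had 19.96 CPM in day 9 replicate 3. What sets the 2 kinds of library apart was not tested.

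**Figure D5:**
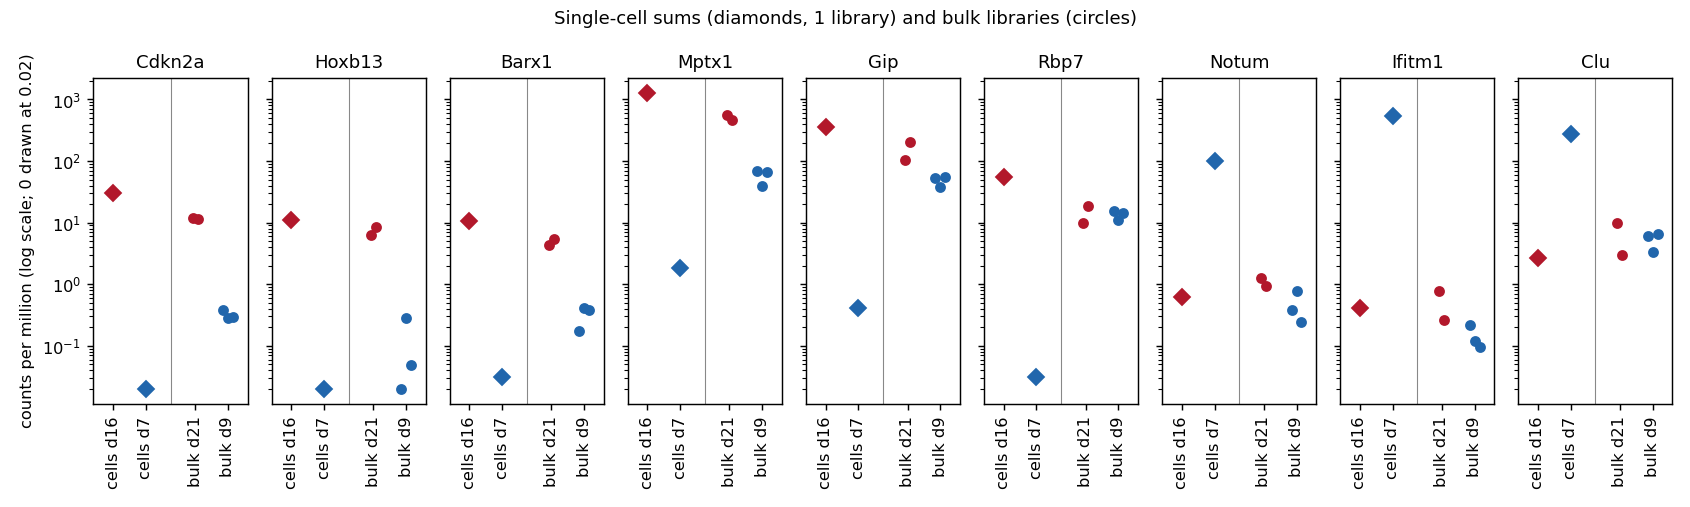
Level in CPM on a log scale for 9 genes, as sums over single cells (diamonds, 1 library per day, day 16 left of day 7) and in bulk libraries (circles, 2 of day 21 left of 3 of day 9). Cdkn2a, Hoxb13, Barx1, Mptx1 and Gip are higher at the later day in both kinds of library. Among the groups drawn, Notum, Ifitm1 and Clu are high in day 7 cells only. The day 12 cells are not drawn.

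In bulk at day 21, 12 of 25 stem cell markers were lower and 0 higher, and Lgr5 had 120 and 120 CPM at day 21 and 186, 170 and 152 CPM at day 9 (log2 -0.49, SE 0.10, edgeR adjusted p = 0.00916). With scaling to library size that adjusted p was 0.0765. The day 30 library gave a log2 of 0.06 for Lgr5. Olfm4, higher in day 16 cells, was lower in bulk at day 21, with 4792 and 4781 CPM against 6586, 7648 and 7997 CPM (log2 -0.63, edgeR adjusted p = 0.00319). Of 30 fitted Hox genes 20 were higher at bulk day 21 and 0 lower, and of 68 other developmental factors 32 were higher and 0 lower, with median log2 fold changes of 3.38 and 2.53. Hoxa9, near equal in the 2 single-cell libraries, was among them (log2 2.51, edgeR adjusted p = 0.00118). Prox1, lower in day 16 cells, was called higher in bulk at day 21 (log2 1.36, edgeR adjusted p = 0.0284). So was Cbx6, with 84.3 and 13.8 CPM against 5.00, 5.29 and 4.17 CPM (log2 3.34, edgeR adjusted p = 0.00594). Of 20 fitted PRC1 genes 4 were higher and 6 lower. Of 25 tuft genes 17 were higher in bulk, of 33 enteroendocrine genes 8, of 20 goblet genes 4 and of 45 enterocyte genes 6, with 1 enterocyte gene lower and 0 of the others. Beside these list counts, 7.44% of all 14664 fitted genes were called higher and 12.8% lower. Of 8 MHC class II genes and of 41 interferon-stimulated genes 0 were called in either direction. Of 21 Wnt genes 1 was higher and 2 were lower. Cd74 ran from 18.2 to 276 CPM among the 3 bulk day 9 libraries and had 46.5 and 279 CPM in the 2 of day 21, so libraries of 1 day overlapped those of the other. Of 74 ribosomal protein genes 71 were lower in bulk and 0 higher, a difference in composition that moves with the bulk calls and whose part in them was not tested.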

How the data were processed

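Single-cell RNA was measured in 1 library per day with droplet-based 3' v3 chemistry, per the labels' protocols. The deposited single-cell matrices give UMI counts, made with Cell Ranger 3.0.2 per the file headers, and include barcodes of empty droplets. The bulk table holds whole-number read counts per gene as deposited, not normalized. The submitters' processing notes name build mm9 and, for the series, SICER 0.0.1, Bowtie2 2.3.4.3, DESeq2 and STAR 2.5.3a. The tool behind the bulk counts, the annotation and the treatment of reads shared by near-identical genes were not given in the sources used here.

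From these, UMIs were summed per gene over kept cells and scaled to UMIs of autosomal genes. Of 24052 genes, 22510 were placed on a chromosome by RefSeq symbol and 1359 by synonym. A gene at 0 UMIs was given a bound computed against 3 UMIs over the library. Empty droplets were barcodes of at most 100 UMIs that were a cell in no library. Shares used cells thinned to 2000 UMIs. Doublets were not called, and the 5% of cells with the most UMIs were left out as an alternative.

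Bulk counts of 8 libraries, with totals from 21328684 to 27900351, were fitted with 1 mean per day in edgeR 4.0.16 (filterByExpr, TMM, quasi-likelihood test, Benjamini-Hochberg adjustment over 14664 genes, threshold 0.05, R 4.3.3), with DESeq2 1.42.0 as an alternative. Residual degrees of freedom were 4. 1 column of values matched no sample and was not used, and 27 date symbols were left out. Other tools were Python 3.11.15, NumPy 2.4.6, SciPy 1.17.1 and pandas 2.3.3. Both procedures were tested on simulated data. The remaining samples of the series were not used here.

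The comparison, the 30 gene lists and the markers were chosen with earlier results of these data known. Named were Eed and Cdkn2a, the 15 largest rises and falls with a mean of at least 5 CPM, and up to 4 list members of largest ratio. Other named members of the lists were picked after their values were seen.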

Additional observations from a re-analysis of the deposited data

Results flagged for a closer look

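Sex-linked RNA lay outside the autosomal comparison and separated the libraries. Ddx3y, on the Y chromosome, had 1387 UMIs at day 16 and 0 at day 7. Xist, on the X chromosome, had 30 UMIs at day 16 and 46269 at day 7, and 1355 CPM at day 12.

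Barcodes of one library's cells also carried more UMIs than other empty barcodes in the other library. The barcodes of the day 16 cells had a mean of 18.83 UMIs in the day 7 library, where other empty barcodes had 5.446. Those UMIs held Mptx1 at 953 CPM and Xist at 38.1 CPM, against 19.01 CPM and 535 CPM in the other empty barcodes of the day 7 library. The barcodes of the day 7 cells had a mean of 16.28 UMIs in the day 16 library, where other empty barcodes had 6.51. Those UMIs held Xist at 963 CPM and Ifitm1 at 305 CPM, against 5.75 CPM and 4.38 CPM in the other empty barcodes of the day 16 library. All of these barcodes lay outside the cells of the library in which they were counted. A few UMIs of a gene at one day, such as the 30 of Xist or the 13 of Ifitm1 at day 16, were not tested for such an origin.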

How the results depend on the processing

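Single-cell counts over 1 library per day have no test, and genes under 2 CPM were too shallow for a ratio. Of 1524 values of 127 named genes under 12 alternatives, 1145 moved by less than their counting interval, 369 moved further and 10 changed sign. Of 348 list medians 10 changed sign. Without a filter on low values 2360 genes were higher and 2291 lower, and at a mean of at least 10 CPM 383 and 459. In stem-gate cells, an alternative chosen after seeing the data, 461 were higher. The Paneth median was 0.357 and 0.131 under the mitochondrial limit of 10% and without the 5% of cells with the most UMIs. The Reg median was -1.876 under that limit, -2.764 outside the 5 gates and -2.685 in stem-gate cells, and the stromal median 0.050 under that limit. Outside the 5 gates Ghrl was -0.487, Spdef -1.583, Reg4 -0.663 and the secretory factor median -0.326. Ghrl and Spdef are among the markers that define those gates, so their change is partly built in. In stem-gate cells Fas was -0.024, Capn9 -0.502, Zg16 -0.342, Fcgbp -0.687, Atoh1 -0.103, Spdef -1.745 and Reg1 -0.260, and the enteroendocrine, goblet and secretory factor medians were -0.295, -0.648 and -0.808. The goblet share differed by 16.2 points without thinning, and the enterocyte share by 65.3 without thinning, 45.0 at 4000 UMIs and 10.1 with at least 4 markers.

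In bulk, library-size scaling gave 2825 higher and 1009 lower genes, with 268 shared higher, and DESeq2 1515 and 1803. The replicate block gave 503 and 1180. Deviations of same-numbered day 9 and day 21 libraries from their day means correlated at 0.007 and 0.048. With 2 libraries at day 21 the deviations mirror each other, so whether the numbers pair the libraries is not settled. Leaving out 1 library each gave 607 to 838 higher and 1182 to 1621 lower genes, with 102 to 167 shared higher and 40 to 75 shared lower. Day 30 against day 9, chosen after seeing the data, gave 536 and 971, with 55 and 31 shared. Day 30 turned Ugt2b5 (-1.928), Gsta1 (-1.377), Car4 (-1.752), Gsdmc4 (-3.116), Lgr5 (0.058) and Olfm4 (0.137), and Gsdmc4 ran from -0.985 without day 21 replicate 1 to 0.874 without day 21 replicate 2. The causes were not tested.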
